A study of Mus musculus with 14 samples.

Results

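A set of 9 genes of glutathione chemistry was followed in regulatory T cells (Tregs) of the mouse gut: the glutathione synthesis genes Gclc and Gclm, the cytosolic glutathione transferases Gstm1, Gstm5, Gstp1 and Gsto1, the mitochondrial transferase Gstk1, and the membrane-bound enzymes Mgst2 and Mgst3. These 9 genes, of 53801 and 55487 listed in the 2 count tables, were taken by symbol, and the list was chosen by the measured genotype differences of Gstm1 in all 3 comparisons, around which the other 8 were added. The Gstm1 genotype differences are therefore given as a description, and calls in those comparisons are counted over the other members.

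RNA-seq was performed on sorted Tregs of mice that differed in Junb, which encodes an AP-1 transcription factor. Peyer's patch (PP) Tregs came from male Foxp3-YFP-cre mice 8 to 12 weeks old, with 1 (HET, Junb F/+, n = 2) or both Junb alleles floxed (KO, Junb F/F, n = 2). In the inducible line, Foxp3-EGFP-cre-ERT2 Rosa26-tdTomato mice 10 to 12 weeks old carried 1 (iHET) or 2 (iKO) floxed alleles, were gavaged 3 times with 8 mg tamoxifen on days 0, 1 and 3, and were collected on day 7. CD25- PP Tregs (n = 2 iHET and 2 iKO) and colonic lamina propria (coLP) Tregs (n = 3 and 3) were taken from this line, number 1 of each group being male and numbers 2 and 3 female, and the females homozygous for the Foxp3 cre allele. All controls also carried 1 floxed allele and the cre, which the Foxp3 locus drove in both lines. In the Foxp3-YFP-cre line recombination was not limited to Tregs, since the methods and results of the study describe it in other blood cells and in the germline. Organ and CD25 gate changed together in the inducible line, and their parts cannot be told apart. Littermates were co-housed, and whether colonic and PP libraries came from the same mice is not given in the sources used here.

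The 14 libraries held 26274861 to 35508709 assigned counts. Junb fell by 3.11 on the log2 scale in PP KO Tregs (SE 0.116, edgeR quasi-likelihood FDR 4.7e-05, n = 2 per group) and by 2.91 in colonic iKO Tregs (SE 0.125, FDR 0.0183, n = 3 per group). In CD25- PP it stood at 5547 and 4182 CPM (counts scaled to library size) in iHET against 891 and 911 in iKO. There the same test called 0 of the 17079 genes, so Junb itself was not called although its groups did not overlap. Foxp3, Cd3e and Cd4, which mark Tregs and their lineage, were present in all 14 libraries, Foxp3 between 59.7 and 155 CPM. Markers of other cells were present too. The summed level of 22 intestinal epithelial markers reached 65.7 to 318 CPM in PP, 259 to 672 CPM in CD25- PP and 441 to 3856 CPM in the colon, and iKO replicate 3 of the colon, at 3856 CPM, stood apart from the other 5 colonic libraries. Over all 14 libraries 10 B and plasma cell markers summed to 386 to 2586 CPM and 12 myeloid markers to 139 to 431 CPM. In such bulk libraries, fewer cells of a type and less RNA per cell cannot be told apart.

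Glutathione is a small thiol peptide that keeps the cell interior reduced. Glutamate-cysteine ligase makes the first and limiting step of its synthesis, transferases join glutathione to reactive electrophiles, and other enzymes recycle, spend or export it. Many of these genes are targets of NRF2, a bZIP factor that pairs with small MAF proteins on antioxidant response elements, sequences related to the AP-1 sites that JUN and FOS family factors read. Transferases are abundant in liver and in gut epithelium, and T cells need glutathione when they are activated.

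The promoters of the members are shown first, because the deleted factor is an AP-1 subunit and the members did not move together. Windows from 250 bases before to 50 bases after the start site were taken from RefSeq (GRCm38.p6) and were found for 8 of the 9 members, in 9 windows, with 2 starts for Gstm1. The letters TGAGTCA (AP-1), TGACGTCA (CRE) and TGACNNNGC (the core of an antioxidant response element) were searched on both strands. The first was present in 5.2% of all 32851 mouse windows of this length, the second in 1.79% and the last in 12.4%. Below are the window of the downstream Gstm1 start, which with its upstream start held none of these letters, that of Mgst3, a member with low levels in PP KO that held none either, and those of Gstp1 and Mgst2, whose genotype differences were small. Capitals mark TGAGTCA on either strand.
Gstm1 (chr3:108017769-108018068, minus strand): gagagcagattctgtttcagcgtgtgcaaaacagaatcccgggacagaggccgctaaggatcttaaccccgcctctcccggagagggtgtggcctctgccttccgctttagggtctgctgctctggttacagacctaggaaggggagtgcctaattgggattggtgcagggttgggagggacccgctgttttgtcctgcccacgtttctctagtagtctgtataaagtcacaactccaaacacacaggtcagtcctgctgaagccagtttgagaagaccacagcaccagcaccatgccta
Mgst3 (chr1:167393792-167394091, minus strand): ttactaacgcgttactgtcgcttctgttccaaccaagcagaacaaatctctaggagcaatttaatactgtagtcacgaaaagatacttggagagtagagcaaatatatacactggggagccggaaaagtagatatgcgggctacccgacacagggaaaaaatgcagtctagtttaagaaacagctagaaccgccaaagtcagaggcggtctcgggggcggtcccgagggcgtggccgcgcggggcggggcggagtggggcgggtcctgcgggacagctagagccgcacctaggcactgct
Gstp1 (chr19:4037863-4038162, minus strand): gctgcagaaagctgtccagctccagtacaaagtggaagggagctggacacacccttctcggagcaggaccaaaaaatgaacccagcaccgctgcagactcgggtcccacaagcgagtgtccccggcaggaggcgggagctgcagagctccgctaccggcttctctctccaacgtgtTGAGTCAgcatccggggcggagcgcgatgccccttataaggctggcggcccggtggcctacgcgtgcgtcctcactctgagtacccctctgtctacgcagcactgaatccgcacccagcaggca
Mgst2 (chr3:51660929-51661228, plus strand): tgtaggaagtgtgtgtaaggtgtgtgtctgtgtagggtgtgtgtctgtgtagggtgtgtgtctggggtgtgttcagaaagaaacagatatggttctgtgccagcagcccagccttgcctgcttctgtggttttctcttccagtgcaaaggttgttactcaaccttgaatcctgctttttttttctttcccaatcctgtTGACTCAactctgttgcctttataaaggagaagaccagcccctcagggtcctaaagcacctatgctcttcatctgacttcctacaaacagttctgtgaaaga
In Gstp1 the site lay at positions -74 to -68 from the start and in Mgst2, as TGACTCA, at -52 to -46. Gstm5 held the same letters at -176 to -170, with an antioxidant response core, TGACCACGC, at -42 to -34, and Gclm held such a core at -134 to -126. No match was present in the windows of Gstk1 and Gsto1. A match describes letters in a window and a missing match says only that they are not there. Gstm5 had the largest colonic genotype difference of the members besides Gstm1 (iKO over iHET, log2 fold change 0.96, SE 0.601, not called). A relation of the letters to the genotype differences was not tested.

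Adjusted for length (CPM per kb of exon), the members covered a wide range in PP Tregs of control mice. Gclc, the catalytic subunit of glutamate-cysteine ligase, stood highest at 28.7 ± 5.09 CPM per kb (SD, n = 2), next to Gstp1, the pi-class transferase, at 28.4 ± 0.324. Their order cannot be read from these libraries, since they differed by less than the spread of Gclc. Below them came Mgst2 (15.7 ± 2.47), Gsto1 (10.9 ± 1.33) and Gclm, the modifier subunit of the ligase (5.84 ± 0.192). Mgst3 (2.32 ± 0.376), Gstm1 (2.24 ± 0.582) and Gstk1 (2.22 ± 0.717) lay within each other's spread, and Gstm5 was lowest at 0.590 ± 0.0123. In colonic iHET Tregs the upper places were held by Gclc (25.3 ± 5.67, n = 3), Gsto1 (20.3 ± 6.88) and Gstp1 (16.9 ± 3.95), again with overlapping spreads, and Gstm5 was lowest at 1.29 ± 1.02.

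**Figure D1:**
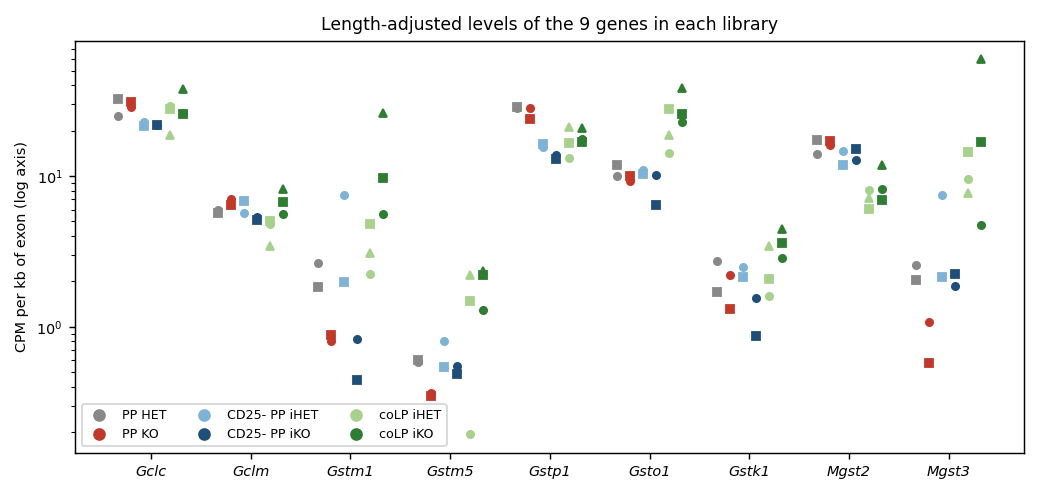
Length-adjusted level (CPM per kb of exon, log axis) of each member in each of the 14 libraries, coloured by group, with circles, squares and triangles for replicates 1, 2 and 3. Gclc, Gstp1, Mgst2 and Gsto1 lie above Gstk1 and Gstm5 in every library, while Gstm1 and Mgst3 span the widest range between libraries.

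In PP Tregs of Foxp3-YFP-cre mice the comparison asked what differs with constant loss of Junb. The study reports that follicular regulatory T cells were almost absent in KO and ascribes most of its called genes here to that loss. It also names ongoing inflammation as a likely confounder. The part of either in the PP differences was not tested. Gstm1, a mu-class transferase, and Mgst3, a membrane enzyme of the MAPEG family, had the largest differences, both lower in KO, while the synthesis genes and the most abundant transferases differed little. Of the 7 other members tested, 0 were called (edgeR quasi-likelihood, FDR under 0.05) against 3.35% of the 12224 genes tested (0.99% higher and 2.36% lower in KO), and 1 of the 7 had an unadjusted p under 0.05, beside 1709 of the 12224 genes. DESeq2 also called 0, where it called 5.69% of all genes. The exact test of edgeR, which the study used, called 1, Mgst3, where it called 5.64% of all genes. The main test without a filter on low counts also called Mgst3, where it called 4.25%.

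Gstm1 was at 3.91 and 2.70 CPM in the HET libraries (121 and 74 counts), while the KO libraries held 1.18 and 1.30 CPM (33 and 35 counts). Both KO libraries were below both HET libraries, with a log2 fold change of -1.39 (SE 0.387). Mgst3 was at 2.84 and 2.26 CPM in the HET libraries, and the KO libraries held 1.18 and 0.631 CPM. The groups did not overlap, and the log2 fold change of -1.45 (SE 0.455) missed the threshold (edgeR FDR 0.157), with FDR from 0.0466 to 0.523 over the alternatives. Epithelial markers moved with both genes. Their summed level was 318 and 198 CPM in the HET libraries against 83.3 and 65.7 CPM for KO. Of the 18 tested 13 were called lower (median of the 18, -3.49 on the log2 scale), and 1 of 22 in each HET library and 5 of 22 in each KO library were at 0. The defining markers were Epcam (64.5 and 62.0 CPM in HET, 38.3 and 37.7 in KO), Krt8 (17.4 and 12.7 against 0.97 and 0.52) and Vil1 (12.4 and 5.10 against 1.61 and 0.26). Their part in the differences of Gstm1 and Mgst3 was not tested.

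The ligase subunits Gclc and Gclm had log2 fold changes of 0.06 (SE 0.121, edgeR FDR 0.911) and 0.21 (SE 0.108, FDR 0.474). Gclm stood at 37.6 and 35.9 CPM in the HET libraries and was above both in KO (44.2 and 40.5 CPM), without overlap, while the Gclc libraries overlapped. Gstp1 (log2 fold change -0.13), Gsto1, an omega-class transferase with thiol transferase activity (-0.17), and Mgst2, a MAPEG enzyme that can also make leukotriene C4 (0.08), differed by less than 0.2 in size. Gstk1, the kappa-class enzyme of mitochondria and peroxisomes, had -0.32 (SE 0.405, FDR 0.831), on 52 to 124 counts a library. Gstm5, at 12 to 23 counts, was below the filter and was not tested. Of the 7 tested besides Gstm1, 2 lay below every HET library in KO and 1 lay above, where 21.8% of all genes tested lay below and 21.8% above.

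**Figure D2:**
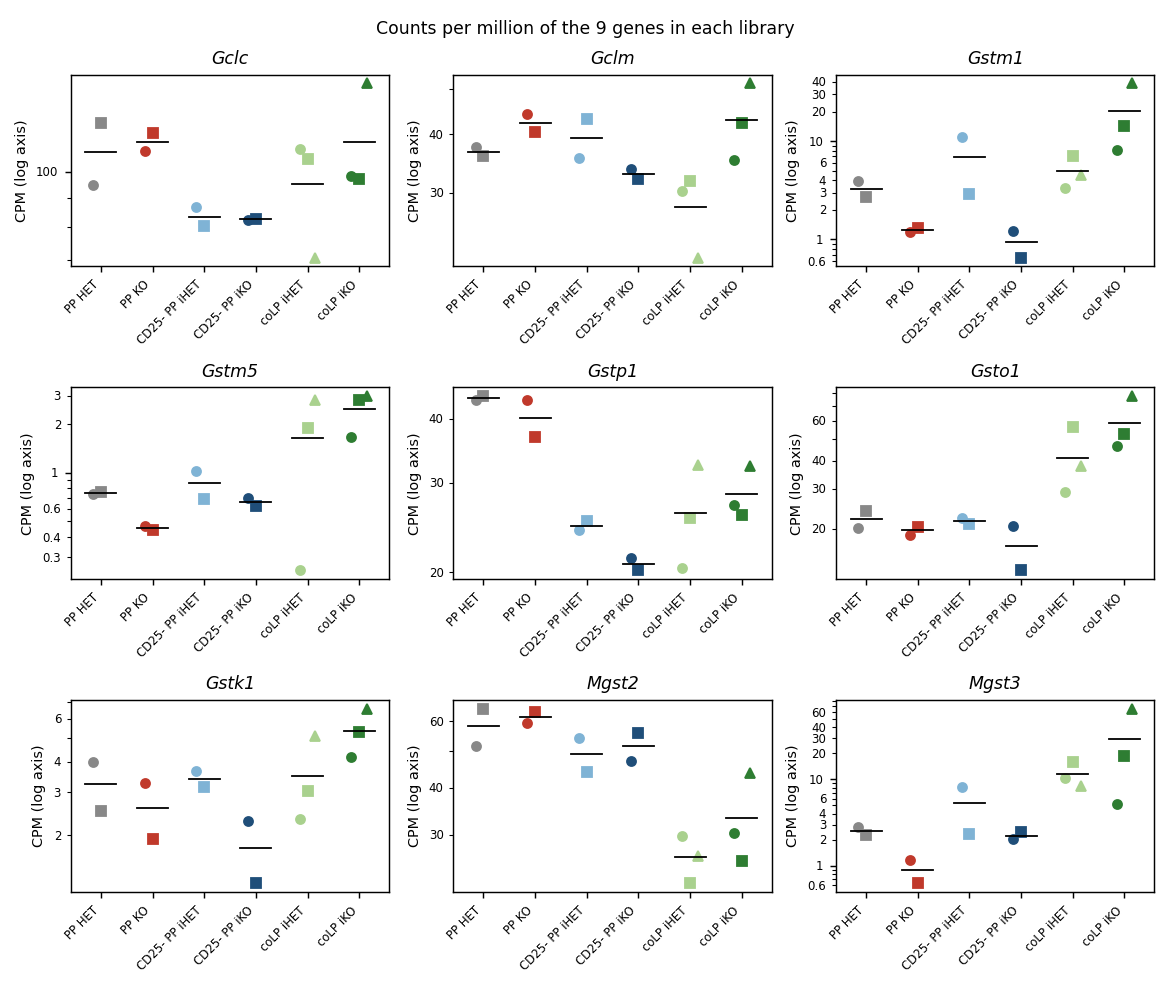
CPM of each member (log axis, each panel with its own scale) in the 14 libraries by group, with circles, squares and triangles for replicates 1, 2 and 3 and a line at the group mean. Gstm1 is lower in both PP KO and both CD25- PP iKO libraries than in their controls, and higher in all 3 colonic iKO libraries.

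In CD25- PP Tregs, 7 days after the first tamoxifen dose, Gstm1 had the largest difference among the members and the ligase again differed little. The edgeR quasi-likelihood test called 0 of the 7 other members tested and 0% of the 17079 genes, among which 618 had an unadjusted p under 0.05, and 0 of the 7 did. Since the deleted gene Junb was not called either, a missing call says little in this comparison. DESeq2 (0.205% of all genes called), the exact test (0.252%) and the main test without a filter (0.544%) also called 0 of the other members. Gstm1 was at 11.04 and 2.91 CPM in iHET and at 1.22 and 0.656 CPM in iKO. The groups did not overlap, but the iHET libraries differed widely from each other, and the log2 fold change of -2.85 (SE 0.706) became -1.61 without iHET replicate 1. Mgst3 was at 8.25 and 2.35 CPM in iHET and at 2.04 and 2.44 CPM in iKO. The groups overlapped, and the log2 fold change of -1.24 (SE 0.595, edgeR FDR 0.999) became -0.08 without iHET replicate 1. That library also had the highest epithelial marker sum of the 4, at 672 CPM against 298 CPM in the other iHET library and 279 and 259 CPM in iKO, and the part of this in the result was not tested.

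Gstk1 stood at 3.68 and 3.15 CPM in iHET and 2.28 and 1.27 CPM in iKO, with a log2 fold change of -0.93 (SE 0.433, edgeR FDR 0.999). Gclm was at 35.5 and 43.1 CPM in iHET and at 33.7 and 32.1 CPM in iKO (-0.26, SE 0.166). Gsto1 (-0.36) and Gstp1 (-0.26) were also lower in both iKO libraries. Gclc (-0.02) and Mgst2 (0.06) had overlapping groups. Besides Gstm1, 4 of the 7 members tested lay below every iHET library in iKO and 0 above, where 16.2% of all genes tested lay below and 16% above.

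In colonic Tregs Gstm1 was higher in iKO, and the fitted signs of the other members were positive. All 8 members other than Gstm1 had a positive log2 fold change in iKO, between 0.13 and 0.96, and none reached the threshold. Over all genes tested, 49.2% had a negative one. For each of the 8 except Gstp1, iKO replicate 3 held the highest CPM of all colonic libraries. With the mouse number as a term for cage, the edgeR quasi-likelihood test called 0 of the 8 and 0.00613% of the 16313 genes, which is Junb alone. At an unadjusted p under 0.05 stood 632 genes (3.87%), and 1 of the 8. DESeq2 (0.257% of all genes called) and the likelihood ratio test that the study used (0.153%) also called 0 of the 8.

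Gstm1 was at 3.30, 7.04 and 4.56 CPM in iHET and at 8.22, 14.3 and 38.8 CPM in iKO. Every iKO library was above every iHET library, and the log2 fold change was 1.78 (SE 0.451). It was 1.16 to 2.19 when 1 library, and with the cage term in effect its same-numbered pair, was left out. Gclm behaved alike in rank, with 30.2, 31.8 and 21.8 CPM in iHET and 35.3, 42.2 and 51.4 CPM in iKO. Its log2 fold change was 0.62 (SE 0.226, edgeR FDR 0.947). Besides Gstm1, Gclm was the 1 member of 8 whose iKO libraries were all above iHET, a pattern that 3.81% of the genes tested had, and 0 of the 8 were all below iHET, as 4.49% of genes were.

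Mgst3 was at 10.4, 15.9 and 8.46 CPM in iHET and at 5.22, 18.5 and 65.1 CPM in iKO. Its iKO libraries held both the lowest and the highest value of the 6. The log2 fold change of 0.67 (SE 0.784, edgeR FDR 0.955) turned to -0.37 without iKO replicate 3 and to -0.36 without iHET replicate 3. Gclc, at 0.24 (SE 0.250), likewise turned to -0.14 without either library. The cage term leaves a library without its same-numbered partner next to no weight in the genotype contrast. Both settings therefore amount to leaving out replicate 3 of both groups. Gsto1 (0.53, SE 0.232) and Gstk1 (0.66, SE 0.271) had overlapping groups, as had Gstm5, a mu-class gene best known from brain and testis (0.96, SE 0.601), Mgst2 (0.31) and Gstp1 (0.13).

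**Figure D3:**
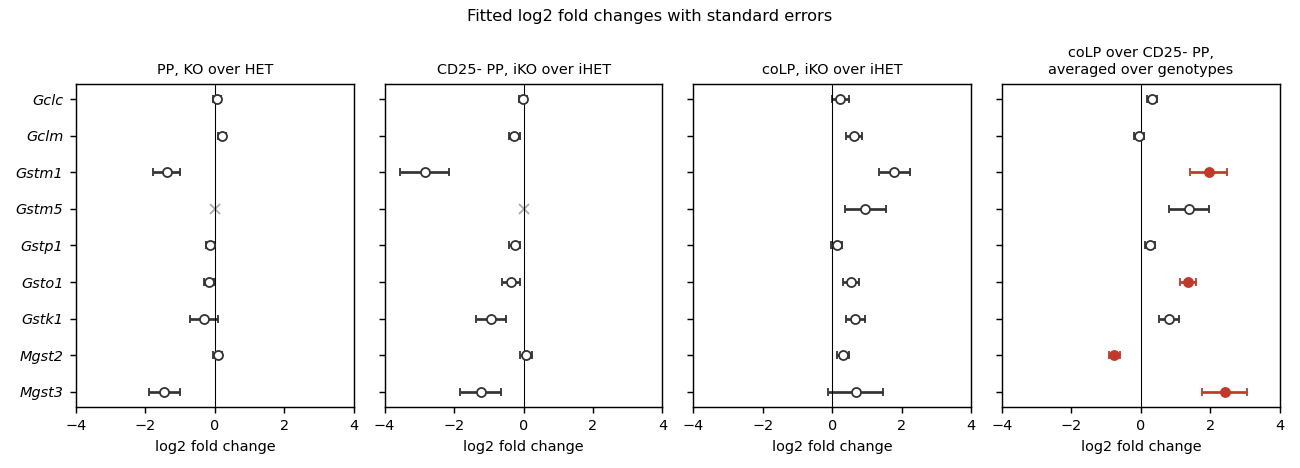
Fitted log2 fold changes (points) with standard errors (bars) of the 9 members in the 3 genotype comparisons and between organs, with filled red points for members called at FDR under 0.05 between organs and crosses for members not tested. Gstm1 has -1.39, -2.85 and 1.78 in the 3 genotype comparisons and 1.95 between organs.

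Markers of other cells differed between the same colonic libraries. The epithelial sum was 924, 1604 and 504 CPM in iHET and 441, 1379 and 3856 CPM in iKO, and 12 stromal and endothelial markers summed to 195, 566 and 365 CPM in iHET and to 1230, 1030 and 203 CPM in iKO. The iKO library with the lowest epithelial sum of the 6, replicate 1, had the highest stromal sum and 8.22 CPM of Gstm1, above all iHET libraries, but the lowest Mgst3. Collagen genes led the stromal sum, with Col3a1 at 619 and 475 CPM in iKO replicates 1 and 2 and 36.8 CPM in replicate 3, and all 10 stromal markers tested had a positive log2 fold change (median 1.05) without a call. The 4 libraries of the inducible line with the highest epithelial sums were also the 4 with the highest Mgst3. Without iKO replicate 3 the Gstm1 log2 fold change was 1.16, with the same sign, and the part of either cell type in the colonic differences was not tested.

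**Figure D4:**
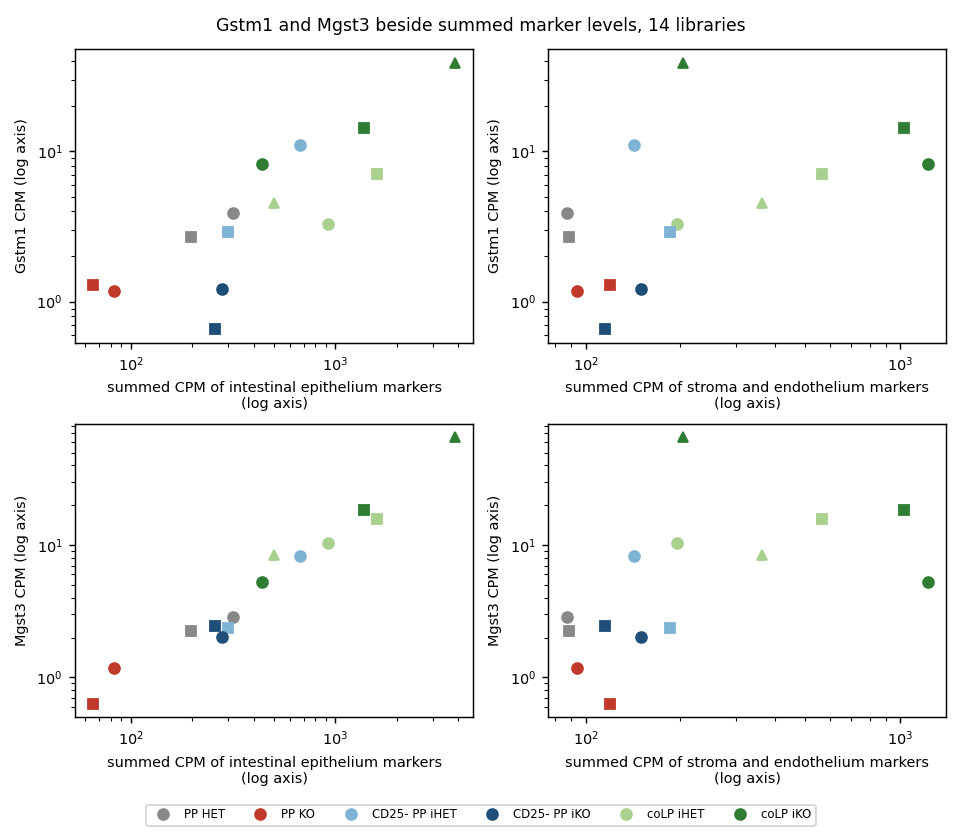
CPM of Gstm1 (top) and Mgst3 (bottom) in each of the 14 libraries beside the summed CPM of 22 intestinal epithelial markers (left) and 12 stromal and endothelial markers (right), all on log axes, coloured by group with circles, squares and triangles for replicates 1, 2 and 3. Colonic iKO replicate 3 is highest in Gstm1 (38.8 CPM), Mgst3 (65.1 CPM) and epithelial sum (3856 CPM), and PP KO libraries are lowest in the epithelial sum.

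The colonic and CD25- PP comparisons were set against each other as the colonic genotype effect minus the CD25- PP effect. For Gstm1 this difference was 4.88 (SE 1.06, log2), and 4.02 without colonic iKO replicate 3 and 3.63 without CD25- PP iHET replicate 1. All 8 other members also had a positive difference, from 0.26 for Gclc to 2.59 for Mgst3 (SE 1.22). The Mgst3 difference became 1.27 without colonic iKO replicate 3 and 1.43 without CD25- PP iHET replicate 1, and that of Gclc became 0.055 and 0.072 without colonic iKO and iHET replicate 3. Gclm had 0.88 (SE 0.297) and Gstk1 1.54 (SE 0.576), the 2 of the 8 with an unadjusted p under 0.05. The edgeR quasi-likelihood test called 0 of the 8 and 0% of the 18626 genes, with 622 genes at an unadjusted p under 0.05, and the FDR of each of the 8 was above 0.99. DESeq2 called 0 of the 8, where it called 0.0108% of all genes. The main test without a filter called 1, Mgst3, where it called 0.627% of all genes.

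Between organs, averaged over genotypes, the members split. Gsto1, Mgst3 and Gstm1 were higher in colonic than in CD25- PP Tregs, Mgst2 was lower, and the ligase subunits did not pass. This contrast was not itself used to choose the members, but it shares its libraries with the Gstm1 differences that were, so the Gstm1 call is a description. The edgeR quasi-likelihood test called 3 of the 8 members other than Gstm1, and 4 of 9 with it. It called 17.3% of the 18626 genes tested (10% higher and 7.29% lower in the colon). At an unadjusted p under 0.05 stood 5 of the 8 members other than Gstm1 and 33.0% of all genes.

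Gsto1 was at 29.0 to 77.3 CPM in the 6 colonic libraries (median 49.3) and at 13.04 to 22.2 CPM in the 4 CD25- PP libraries. The organs did not overlap, and the log2 fold change of 1.36 (SE 0.232, edgeR FDR 0.00422) held its call under every alternative. Mgst2 was at 22.3 to 43.8 CPM in the colon (median 28.1) and at 44.0, 47.2, 54.2 and 56.0 CPM in CD25- PP. Again the organs did not overlap, although the highest colonic library, iKO replicate 3, came close to the lowest PP library, and Mgst2 fell by 0.77 on the log2 scale (SE 0.163, FDR 0.0114), a call lost only without CD25- PP iKO replicate 2 (FDR 0.0525). In iHET alone its organ difference was -0.91 and in iKO -0.63.

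Mgst3 reached 5.22 to 65.1 CPM in the colon (median 13.1) against 2.04 to 8.25 CPM in CD25- PP. The organs overlapped, and the log2 fold change was 2.41 (SE 0.653, edgeR FDR 0.0310). Gstm1 reached 3.30 to 38.8 CPM in the colon against 0.656 to 11.04 CPM in CD25- PP, also with overlap and with a log2 fold change of 1.95 (SE 0.536, FDR 0.0321). That average stood on unequal parts, since the colon-over-PP difference of Gstm1 was -0.48 (SE 0.687) in iHET and 4.39 (SE 0.861) in iKO. The difference of Mgst3 was also unequal, at 1.12 (SE 0.867) in iHET and 3.71 (SE 0.989) in iKO. Both calls were lost, with FDR of 0.112 for Gstm1 and 0.123 for Mgst3, when the mouse number was added as a block, and when any of colonic iHET replicate 2, CD25- PP iHET replicate 2, or CD25- PP iKO replicate 1 or 2 was left out. Of the 22 epithelial markers, 10 were called higher and 1 lower in the colon, and of the 11 stromal markers tested 8 were called higher. Their part in the organ differences was not tested.

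The remaining members did not pass between organs in the main test, although DESeq2 called Gstk1 (adjusted p = 0.04997) and edgeR without a filter called Gstm5 (FDR 0.0247). Gclc had a log2 fold change of 0.32 (SE 0.155, edgeR FDR 0.182), Gclm -0.05 (FDR 0.835), Gstp1 0.27 (FDR 0.230), Gstk1 0.80 (SE 0.293, FDR 0.0862) and Gstm5 1.39 (SE 0.568, FDR 0.112). Gstm5 rested on 7 to 94 counts a library. In colonic iHET replicate 1 it had 7 counts, and without that library the Gstm5 difference was 1.63 and passed (FDR 0.0105).

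The rest of the pathway was read from 3 lists, drawn up with earlier results of these data known. Among 22 other glutathione transferases, 9 were tested in PP and 1 was called, Gstm3, a mu-class neighbour of Gstm1. Gstm3 had 120 and 47 counts in HET and 0 in both KO libraries, which makes it at least 25.5-fold lower in KO against a floor of 3 counts per library (edgeR quasi-likelihood FDR 0.0115). The list's median log2 fold change was -0.42, the same with Gstm3 at that bound, beside 0.003 over all genes. Of the 30 genes of glutathione synthesis, recycling, use and export, 24 were tested in PP, 1 rose and 2 fell, with a median of -0.04. Glrx, which reduces glutathionylated proteins, rose by 0.38 (SE 0.0776, FDR 0.0398), from 100.5 and 101.9 CPM to 135.7 and 128.3 CPM. Ggt1, which starts the breakdown of extracellular glutathione, fell by 2.17 (SE 0.464, FDR 0.0441), and Anpep, an aminopeptidase of the intestinal brush border, fell by 2.10 (SE 0.406, FDR 0.0325).

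The third list, of the NRF2 pathway, thioredoxin and NADPH supply, held 23 genes, of which 21 were tested in PP, 0 rose and 2 fell, with a median of -0.04. Srxn1, which repairs peroxiredoxins, was at 20.5 and 19.8 CPM in the HET libraries against 4.23 and 8.01 CPM for KO, and fell by 1.71 (SE 0.282, edgeR FDR 0.0181). Hmox1, which degrades haem, was at 19.6 and 20.7 CPM in the HET libraries against 10.05 and 11.8 CPM for KO, and fell by 0.88 (SE 0.162, FDR 0.0284). Txnrd1 and Sqstm1 of the same list were nearer to 0, at 0.05 (SE 0.118) and -0.11 (SE 0.0943). The PP KO libraries, with the low epithelial sums given above, were also those in which Gstm3, Ggt1, Anpep, Srxn1 and Hmox1 were lower, and the part of that in the pathway calls was not tested.

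In CD25- PP, edgeR called 0 of 13, 0 of 28 and 0 of 22 tested genes of these lists, with medians of -0.37, -0.18 and 0.05. In the colonic genotype comparison 0 of 15, 0 of 29 and 0 of 23 were called, with medians of 0.30, 0.08 and 0.12. Srxn1, called in PP, had -0.21 (SE 0.247) and -0.48 (SE 0.142) in these comparisons, and Hmox1 had 0.33 (SE 0.210) and -0.08 (SE 0.287). Gss, the enzyme of the closing step of glutathione synthesis, had 0.73 (SE 0.281) in the colon and stood at 52.6 CPM in iKO replicate 3.

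Between organs the lists held more calls, as did all genes, 17.3% of which were called. Of 19 other transferases, 1 was higher in the colon, Gstm2 (3.45, SE 0.806, edgeR FDR 0.0117), which stayed under 3 CPM in every library. Of 29 synthesis, recycling, use and export genes 8 were higher and 1 lower, with a median of 0.31. Glrx (1.18, SE 0.155), Gpx1, a peroxidase that spends glutathione on peroxides (0.95, SE 0.154), Cbs, which feeds cysteine supply (1.55, SE 0.273), and glutathione reductase Gsr (0.43, SE 0.0920) were higher, as were the exporter Abcc1 (0.46), the secreted peroxidase Gpx3 (3.18) and Ggt6 (4.12), while Ggt1 fell by 1.498 (SE 0.257). Of 23 NRF2, thioredoxin and NADPH genes 6 were higher and 0 lower, with a median of 0.32: thioredoxin reductase Txnrd1 (0.84, SE 0.105), the autophagy adaptor Sqstm1 (0.84), Srxn1 (1.19), the quinone reductase Nqo1 (2.78) and the NADPH-linked sugar enzymes G6pdx (0.49) and Tkt (0.39). Nqo1 was at 40.1 CPM in colonic iKO replicate 3 and at 3.41 to 9.73 CPM in the other 5 colonic libraries.

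**Figure D5:**
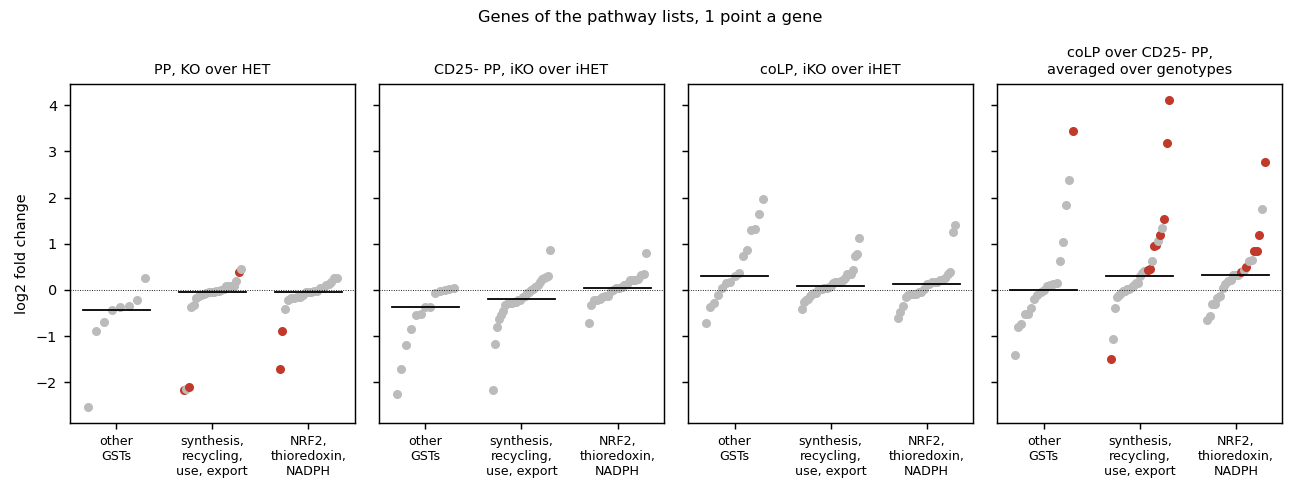
Log2 fold changes of the genes of the 3 pathway lists (1 point a gene, sorted within a list) in the 3 genotype comparisons and between organs, with red points for genes called at FDR under 0.05 and a line at the list median. Gstm3 in PP, at 0 counts in both KO libraries, is not drawn but enters the median, and calls are present in PP and between organs.

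Among the genes most like Gstm1 over the 10 libraries of the inducible line, by Pearson's r of log2 CPM, were Gstm2-ps1 (r = 0.946), Btc (0.938), Sdsl (0.931) and Fbp2 (0.909). Gstm2-ps1 is a pseudogene of the same family. Btc encodes the EGF-family ligand betacellulin and Fbp2 the muscle-type fructose bisphosphatase. Fbp2 stood at 17.97 CPM in colonic iKO replicate 3 and below 0.5 CPM in both CD25- PP iKO libraries. Several of these likenesses rest on values near the floor. Sdsl was at 0 CPM in both CD25- PP iKO libraries and at most 2.48 CPM, Btc lay between 0.182 and 2.95 CPM, and Gstm2-ps1 was at 0 CPM in CD25- PP iKO replicate 2. Among the members Gstk1 was nearest (r = 0.891, rank 13 of 18625 genes), then Mgst3 (0.867), Gsto1 (0.848), Gstp1 (0.711), Gstm5 (0.675), Gclc (0.643) and Gclm (0.477), and Mgst2 stood at -0.32. The 22 epithelial markers had a median r of 0.637, where all genes had 0.0207, and 2 of them were among the 100 nearest genes. These values share libraries and depth and are a description.

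Some members share sequence with other genes, which bears on how their reads were counted. Of all distinct stretches of 50 bases, the read length, in annotated Gstm1 transcripts, 18.9% were also present in another gene, mainly Gstm2-ps1 and Gstm3. For Gstp1 the share was 33.7%, with Gstp2, for Gstm5 9.44% and for Gclm 4.58%, and it was 0% for Gclc, Gsto1, Gstk1 and Mgst3. Reads that map to several places were dropped, so the levels of Gstm1 and Gstp1 are uncertain, and reads of Gstm1 and Gstm2-ps1 cannot always be told apart. Gclm (296 exon bases) and Gstm5 (178 exon bases) also overlap genes on the other strand, from which reads cannot be told apart without strand. Gclm shares 244 exon bases with Gm6061 as well, a pseudogene on its own strand.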

How the data were processed

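Sorted gut Tregs were profiled by RNA-seq (SMARTer low-input kit, 50-base reads, used as single-end). The authors trimmed reads, aligned them to mm10 with STAR without multi-mapped reads, and counted them per gene with featureCounts in default, unstranded mode. The deposited values are raw counts, in 1 table per mouse line, for 14 libraries of 26274861 to 35508709 counts. The sort gate of PP Tregs of Foxp3-YFP-cre mice was narrower than all Tregs and is not reported here in full.

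Ensembl IDs were matched to GENCODE M21 (53706 of 53801 and 55394 of 55487). Genes with at least 1 CPM in as many libraries as the smaller group were kept, scaled by TMM, and tested with the edgeR 4.0.16 quasi-likelihood test (R 4.3.3), with Benjamini-Hochberg FDR under 0.05 over all genes. Each genotype comparison was fitted on its own libraries, the colonic one with mouse number as a term for cage, after the study's design, which does not tie numbers to cages. Organ contrasts used all 10 libraries of the inducible line. Fold changes used a prior count of 1, and standard errors came from the fold change and F statistic. P-values measure the spread between mice. In the organ contrasts this holds only if each library came from a different mouse, which is not given. CPM are TMM-scaled, except the summed marker levels, which were scaled by total counts alone, and per-kb levels used merged exons. Alternatives were DESeq2 1.42.0, its size factors, no filter, the study's tests, a replicate block or none, 1 fit of the inducible line, and leaving out each library. Scripts were tested on simulated counts.

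The members and gene lists were chosen with earlier results of these data known. The text names all 9 members, Junb, defining cell markers, up to 8 called genes per pathway list and comparison by lowest p, and the 5 genes most like Gstm1, of which 1 is not reported here. Gss in the colon, Txnrd1 and Sqstm1 in PP, and the single-library values of Nqo1 and Fbp2 were chosen after their values were seen. Sex-linked genes matched the labelled sex in 14 of 14 libraries.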

Additional observations from a re-analysis of the deposited data

Results flagged for a closer look

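Gstm1 and Gclm stood in opposite order in the organs of the inducible line, with every iKO library on the same side of every iHET library within an organ. Gstm1 was lower in both CD25- PP iKO libraries than in both iHET libraries and higher in all 3 colonic iKO libraries than in all 3 iHET libraries, and its genotype effects differed by 4.88 on the log2 scale. No test is drawn from this difference, because it was among the reasons for choosing the genes. Gclm showed the same pattern at a smaller size, with effects that differed by 0.88, and that difference did not pass the edgeR quasi-likelihood test over all genes (FDR above 0.99). In PP Tregs of Foxp3-YFP-cre mice the 2 genes went apart. Both KO libraries lay above both HET libraries for Gclm and below them for Gstm1. Of all genes tested, 16.2% had every CD25- PP iKO library below every iHET library, and 3.81% had every colonic iKO library above. The share of genes with both was not counted, so how unusual the pattern is cannot be read here. No group had the 4 libraries needed to look for outlying samples.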

How the results depend on the processing

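The count of members called moved with the settings, and so did the share of all genes called. In the genotype comparisons and their organ difference the count leaves out Gstm1, whose values chose the list. Between organs it includes Gstm1. In PP it was 0 (3.35% of genes), and 0 with DESeq2 (5.69%). Without a filter on low counts (4.25%) and with the edgeR exact test (5.64%) it was 1, Mgst3. In CD25- PP it was 0, also with DESeq2 (0.205%) and without a filter (0.544%). In the colon it was 0, also with DESeq2 (0.257%) and without a filter (0.0604%). For the organ-by-genotype difference it was 0, also with DESeq2 (0.0108%), and 1, Mgst3, without a filter (0.627%). Between organs it was 4 (17.3%), 5 with DESeq2 (24.5%) and 5 without a filter (10.6%), fell to 2 with the replicate block (12.7%), and ranged from 1 to 5 when 1 library was left out. With the replicate block, which changed no other count, 0 members were called in PP, in CD25- PP and for the organ-by-genotype difference, and without it 0 were called in the colon. Same-numbered libraries deviated together only weakly (r of 0.098 in PP, 0.068 in CD25- PP, and 0.148, 0.219 and -0.013 in the colon), so the numbers are not shown to pair the mice. When 1 library was left out, the log2 fold changes that turned sign ranged from -0.11 to 0.25 (Gclc), -0.75 to 0.043 (Gstk1) and -0.079 to 0.24 (Mgst2) in PP, from -0.080 to 0.028 (Gclc) and -0.082 to 0.22 (Mgst2) in CD25- PP, from -0.14 to 0.45 (Gclc), -0.00029 to 0.22 (Gstp1) and -0.37 to 1.58 (Mgst3) in the colon, and from -0.13 to 0.019 (Gclm) between organs. As a description, Gstm1 kept its sign under every alternative. It ranged from -1.63 to -1.10 in PP, -3.51 to -1.61 in CD25- PP, 1.16 to 2.19 in the colon and 3.63 to 5.54 for the organ-by-genotype difference. The cause of these changes was not tested. Leaving out a library of a pair leaves 1, which is assumed to vary like the rest. In the colonic genotype fit with the cage term, leaving out 1 library in effect also removes its same-numbered partner from the contrast. With 2 or 3 mice per group, small differences were not detectable, and in CD25- PP the main test did not call Junb itself. Gstm1, Gstm5, Gstk1 and Mgst3 rested on few counts in some libraries (7 to 94 for Gstm5).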
